A study of Rattus norvegicus with 42 samples.

Results

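The 9 genes described here encode enzymes that make heme (Alas1, Alad, Uros, Urod, Cpox, Ppox and Fech) or break it down (Hmox1 and Blvrb). They were chosen by name, with earlier results of these data known. They are 9 of the 22929 genes in the RNA count table, and they account for 22 of the 60999 regions in which elongating RNA polymerase II was measured. Of the 3981 glucocorticoid receptor (GR) regions, 7 are centred within 50 kb of the transcription start site (TSS) of a member. The rule for members set no limit on the values below, but the choice was not made blind to these data.

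Heme is built from glycine and succinyl-CoA by a chain of enzymes that begins and ends in the mitochondrion, and the first of them, ALAS1, sets the rate in liver. Hepatocytes need heme mainly for cytochromes P450 and other heme enzymes, and heme itself represses Alas1. Heme oxygenase 1, the product of Hmox1, opens the ring of spent heme to give biliverdin, iron and carbon monoxide, and biliverdin reductases turn biliverdin into bilirubin.

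All livers came from adrenalectomised male Sprague Dawley rats that received corticosterone (CORT) or vehicle intravenously for up to 180 min, so that the infusion was the source of this hormone. Pulsatile infusion (PULS) consisted of 3 pulses of 20 min, 1 every 60 min, and constant infusion (CONS) was matched to it in dose. The ChIP-Seq groups were PEAK_140 (pulsatile CORT, 140 min, the height of the last pulse), NADIR_180 (pulsatile CORT, 180 min, the trough after it), CONS_140 and CONS_180 (constant CORT at 140 min and 180 min) and VEH (pulsatile vehicle, 1 library at 140 min and 1 at 180 min), each with 2 libraries for GR and 2 for RNA polymerase II phosphorylated at serine 2 (pSer2 Pol2), and each library pooled the livers of 6 rats. RNA-Seq comprised 3 libraries per group, all at 180 min, for pulsatile CORT (PULS_CORT), pulsatile vehicle (PULS_VEH), constant CORT (CONS_CORT) and constant vehicle (CONS_VEH). The labels do not tie the RNA libraries of a group to separate animals in words, so p-values measure the spread between these samples.

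Depth was 3956379 to 7777219 reads per RNA library, 4938473 to 9326927 tags per pSer2 Pol2 library and 2051977 to 6715803 tags per GR library. The shallowest GR library was the second of PEAK_140 (2051977 tags). The summed hepatocyte markers (Alb, Ttr, Apoa1, Apob, Cps1 and Serpina1) lay between 98300 and 149000 CPM (counts scaled to a fixed library size) in every RNA library, which fits the labelled tissue. Markers of other cells were lower: 181 to 426 CPM for 9 erythroid genes (Gata1 at 0) and 257 to 467 CPM for 7 macrophage genes (Cd5l at 0). The sums were 450 to 775 CPM for 5 stellate and fibroblast genes and 250 to 340 CPM for 4 endothelial genes. They were 8.1 to 14.2 CPM for 4 cholangiocyte genes (Krt19 at 0) and 0.574 to 4.67 CPM for 6 leukocyte genes.

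The members whose polymerase occupancy differed between groups in the tests below were Alas1 and Alad, so their proximal promoters are shown. The sequences are the 250 bases before the RefSeq start in the GRCr8 assembly, given 5′ to 3′ on the coding strand, with CG dinucleotides in capitals. The Alas1 promoter lies at chr8:115768643-115768892 and the Alad promoter at chr5:80987902-80988151, both on the minus strand.
Alas1: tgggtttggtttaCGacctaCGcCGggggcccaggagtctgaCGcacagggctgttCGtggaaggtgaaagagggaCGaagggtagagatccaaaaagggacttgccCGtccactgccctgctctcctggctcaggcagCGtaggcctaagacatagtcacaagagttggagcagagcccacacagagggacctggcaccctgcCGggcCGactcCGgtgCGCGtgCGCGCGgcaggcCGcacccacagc
Alad: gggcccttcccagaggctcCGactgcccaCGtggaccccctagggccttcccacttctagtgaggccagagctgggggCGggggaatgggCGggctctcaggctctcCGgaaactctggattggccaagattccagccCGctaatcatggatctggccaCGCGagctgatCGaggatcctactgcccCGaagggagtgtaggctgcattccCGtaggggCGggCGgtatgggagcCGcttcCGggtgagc
The Alas1 stretch holds 17 CG dinucleotides at 64% GC and that of Alad 15 at 65.6%, against medians of 5 and 51.2% over 33469 promoters of this length. Of those promoters, 21.9% held as many CG dinucleotides as Alas1 or more. RefSeq promoters were matched for 7 of the 9 members, all but Cpox and Hmox1, and the 7 held 9 to 17 CG dinucleotides. The GR core AGAACA, read on both strands, occurred in 0 of these 7 promoters and in 17.5% of all promoters. The same 0 of 7 was found for TTGCNNAA (9.22% of all promoters), AGGTCA (14.1%), TGACNNNGC (10.1%), TGTTTAC (3.21%) and TGCGCA (6.14%), and for the palindrome of 2 GR cores 3 bases apart (0.012%). A letter match is a description only.

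Polymerase phosphorylated at serine 2 marks transcription in progress, and its tags over the first 10 kb of each gene were compared to ask how each infusion pattern altered transcription of the members. In brief, Alas1 occupancy was higher at the pulse peak than at the trough, and it was also higher at 180 min of constant CORT than at the trough. Alad occupancy was lower at the pulse peak than in VEH and at the trough. The other 7 members passed the test in no comparison.

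Alas1, the gene of the rate-limiting enzyme, was read over chr8:114930177-114940177 (rn6, minus strand, from its TSS). Its log2 occupancy was 9.57 and 9.36 in VEH, 10.57 and 10.28 in PEAK_140, 8.54 and 8.63 in NADIR_180, 10.69 and 10.29 in CONS_140, and 10.46 and 10.22 in CONS_180. Both NADIR_180 libraries lay below both VEH libraries, and all 6 libraries of PEAK_140, CONS_140 and CONS_180 lay above VEH. Alas1 rose 3.58-fold from NADIR_180 to PEAK_140 (log2 difference 1.84 ± 0.28 SE, adjusted p = 0.0145), a comparison in which 0.48% of the 38315 regions tested were called. The gene stood 3.39-fold higher in CONS_180 than in NADIR_180 (1.76 ± 0.28, adjusted p = 0.038, 0.17% of regions called). Against VEH, with which no Alas1 difference passed, the log2 difference was 0.96 ± 0.28 in PEAK_140 (adjusted p = 0.257), 1.02 ± 0.28 in CONS_140 (adjusted p = 0.213), 0.87 ± 0.28 in CONS_180 (adjusted p = 0.686) and -0.89 ± 0.28 in NADIR_180 (adjusted p = 1). The PEAK_140 value in this set of VEH comparisons passed the test under median centring (1.04, adjusted p = 0.0219), quantile normalization (0.92, adjusted p = 0.0236) and a restriction to regions above the median level (0.96, adjusted p = 0.0165). CONS_140 and PEAK_140 differed by 0.06 ± 0.28 (adjusted p = 0.867). All 3 Alas1 regions in the table, which cover 2 nearly identical intervals, gave the same calls.

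The change from peak to trough was set against the change from 140 min to 180 min of constant infusion in a test of the difference itself. For Alas1 this difference was 1.69 ± 0.39 on the log2 scale and did not pass (adjusted p = 0.217, 0.0574% of regions called). It passed with centring (1.97, adjusted p = 0.0134), with quantile normalization (1.71, adjusted p = 0.0196) and in regions above the median level (adjusted p = 0.0107). The calls of Alas1 also depended on single libraries. The difference between PEAK_140 and NADIR_180 lost its call without either library of PEAK_140, NADIR_180 or CONS_180 (adjusted p between 0.0523 and 0.2) and kept it without either library of VEH or CONS_140. The difference between CONS_180 and NADIR_180 lost its call without any 1 library other than those of CONS_140 (adjusted p between 0.0594 and 0.496). The log2 differences stayed between 1.64 and 1.99 in these fits.

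Alad encodes the enzyme of the second step, which joins 2 molecules of aminolevulinic acid into porphobilinogen, and was read over chr5:78369346-78379346 (rn6, minus strand). Its log2 occupancy was 7.85 and 7.26 in VEH, 5.12 and 4.28 in PEAK_140, 7.75 and 7.90 in NADIR_180, 7.88 and 6.11 in CONS_140, and 7.29 and 6.17 in CONS_180. The PEAK_140 libraries were the lowest of the 10 and did not overlap any other group, while the libraries of CONS_140 differed from each other by more than the libraries of any other group did. Alad fell 7.21-fold in PEAK_140 against VEH (log2 difference -2.85 ± 0.58, adjusted p = 0.0436), where 0.989% of all regions were called. It was 8.69-fold lower in PEAK_140 than in NADIR_180 (-3.12 ± 0.58, adjusted p = 0.0461). Of all regions, 0.211% had a lower difference from VEH at the peak, and 0.0574% had a lower difference from the trough. NADIR_180 differed from VEH by 0.27 (adjusted p = 1), CONS_140 by -0.56 (adjusted p = 0.777) and CONS_180 by -0.82 (adjusted p = 0.999).

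The direct comparison of Alad between CONS_140 and PEAK_140 gave 2.29 ± 0.58 on the log2 scale (adjusted p = 0.177), or 2.03 above the median region, and the test of the peak-to-trough change against constant infusion gave -3.39 ± 0.81 (adjusted p = 0.234). With the replicate number as a block the former was called (2.29, adjusted p = 0.0347), as were 484 regions in all against 10 without the block, but the labels do not say that the number marks a shared experiment. Of the 5 Alad regions, which cover 4 intervals, 3 were called in both PEAK_140 comparisons. Among these, ENSRNOT00000020625 repeats the interval of the whole gene with the same values and adds no separate call. The interval ENSRNOT00000075916, which starts further downstream, gave -3.13 ± 0.58 against VEH (adjusted p = 0.0268). The short intervals ENSRNOT00000076837 (-1.37 ± 0.38, adjusted p = 0.217) and ENSRNOT00000077013 (-0.91 ± 0.36, adjusted p = 0.721) were not called. Both Alad calls of the whole gene were lost without any 1 of the 10 libraries (adjusted p between 0.104 and 0.515), in fits with no variance trend (0.152 and 0.154) and in fits to the libraries compared alone (0.157 and 0.523). The log2 differences then stayed between -2.44 and -3.54.

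**Figure D1:**
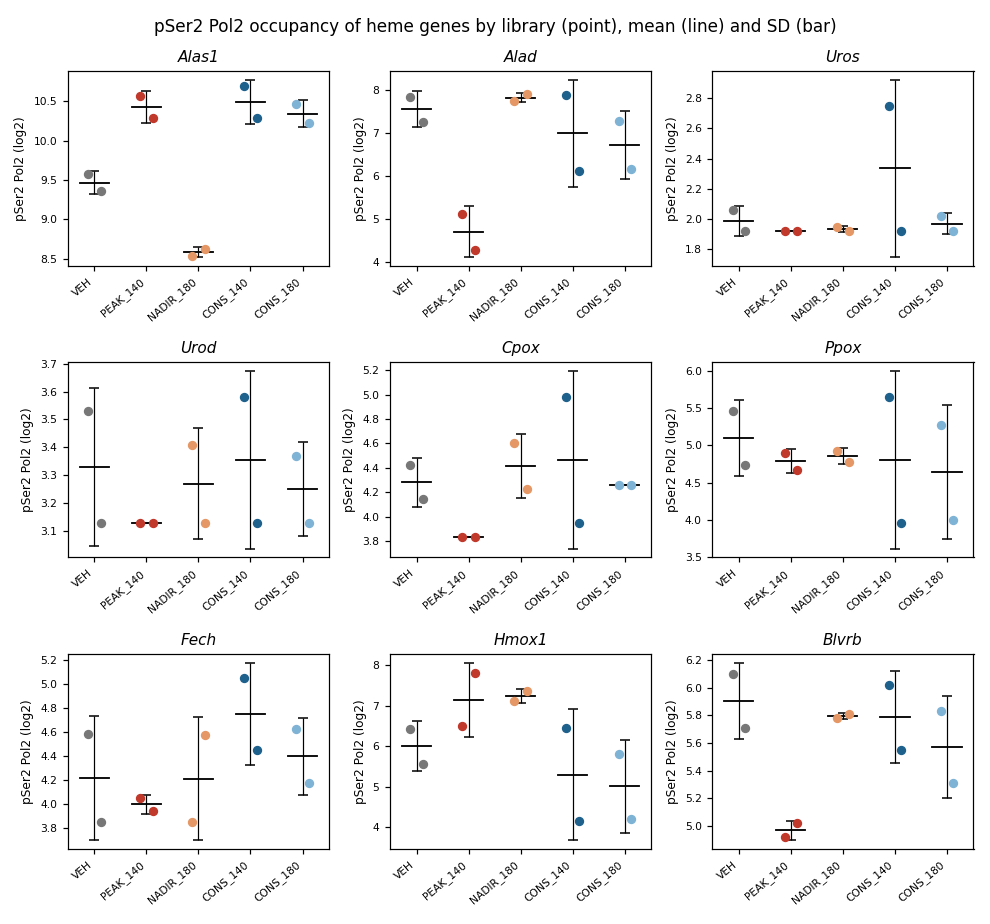
pSer2 Pol2 occupancy on the log2 scale (vertical axis, a separate range for each gene) of the 9 members in VEH, PEAK_140, NADIR_180, CONS_140 and CONS_180. Points are libraries, lines are means and bars are SD (n = 2). Alas1 is lowest in NADIR_180 and Alad lowest in PEAK_140, with no overlap with the other groups.

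Uros and Urod, which form and then decarboxylate uroporphyrinogen, had few tags. Uros gave 2.75 in the first CONS_140 library and 1.92 to 2.06 in the other 9, and its interval shares 38 bases with that of Bccip on the opposite strand, which ChIP tags cannot separate. Urod ranged from 3.13 to 3.58. In 6 of the 10 libraries each of these genes sat at its lowest value, so a decrease could not have been seen.

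Cpox, Ppox and Fech act last, in and around the mitochondrion, and Fech inserts the iron. Cpox stood at 3.83 in both PEAK_140 libraries, below the 3.95 to 4.98 of the other 8, and its difference between PEAK_140 and NADIR_180 was -0.58 ± 0.35 (adjusted p = 1). The equal PEAK_140 values of Cpox, the lowest of its region, may mark the floor of the scale, where a further decrease could not have been seen. Ppox lay between 3.96 and 5.65 and Fech between 3.85 and 5.05, with every group overlapping another. In the PEAK_140 comparison with VEH the difference was -0.31 ± 0.55 for Ppox and -0.22 ± 0.37 for Fech (adjusted p = 0.999 for both).

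Hmox1, the inducible heme oxygenase, gave 6.43 and 5.56 in VEH, 6.50 and 7.79 in PEAK_140, 7.12 and 7.35 in NADIR_180, 6.44 and 4.16 in CONS_140, and 5.82 and 4.20 in CONS_180. The 4 libraries of pulsatile CORT lay above the 6 others, but the spread within groups was wide. Hmox1 differed by -2.22 ± 0.74 between CONS_180 and NADIR_180 (adjusted p = 1) and by -1.85 ± 0.74 between CONS_140 and PEAK_140 (adjusted p = 0.454), so neither passed. Against VEH its difference was 1.15 ± 0.74 in PEAK_140 and 1.24 ± 0.74 in NADIR_180. Blvrb, a cytosolic biliverdin reductase, gave 6.10 and 5.71 in VEH, 4.92 and 5.02 in PEAK_140, and 5.31 to 6.02 in the other 6 libraries. Its PEAK_140 libraries were the lowest of the 10, and the difference from VEH was -0.94 ± 0.34 (adjusted p = 0.57).

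By count, 2 of 9 members were called between PEAK_140 and NADIR_180 (0.48% of all regions called). Between PEAK_140 and VEH it was 1 of 9 (0.989%), and between CONS_180 and NADIR_180 it was 1 of 9 (0.17%). These calls depended on single libraries, as given above. With limma 0 of 9 were called between CONS_140 and VEH (0.788% of all regions called, 1 member at an unadjusted p below 0.05). The same 0 of 9 was found between CONS_180 and VEH (0.214% and 1 member) and between NADIR_180 and VEH (0.00522% and 1 member). It was also found between CONS_140 and PEAK_140 (0.0261% and 3 members) and in the test of the peak-to-trough change against constant infusion (0.0574% and 3 members). These comparisons share libraries, VEH above all, and are not independent of each other. The median difference over all regions was 0.15 between CONS_140 and VEH, 0.26 between CONS_140 and PEAK_140 and -0.30 in the last test. Relative to it Alas1 stood at 0.87, -0.19 and 1.99.

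The second CONS_140 library was lower than the first in 9 of 9 members, by 0.41 to 2.27, with a median of 0.83 against 0.50 over all regions. The second library was also the lower one in 9 of 9 members in VEH (median 0.40, 0.18 over all regions) and in 8 of 9 in CONS_180 (0.44 and 0.07). Without the second CONS_140 library 22.4% of all regions were called between CONS_140 and PEAK_140, 14.8% between CONS_140 and VEH and 20.1% in the test against constant infusion, so that member calls in these fits say little about the members. They were 4 between CONS_140 and PEAK_140, namely Alad (3.18, adjusted p = 0.00986), Blvrb (1.06, adjusted p = 0.0465), Cpox (1.15, adjusted p = 0.0115) and Uros (0.83, adjusted p = 0.000403). Alas1 (1.22, adjusted p = 0.00407) and Uros (0.76, adjusted p = 0.000622) were then called between CONS_140 and VEH, and Alad, Alas1, Cpox and Uros in the test against constant infusion. The remaining CONS_140 library is taken in these fits to vary like the other groups.

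**Figure D2:**
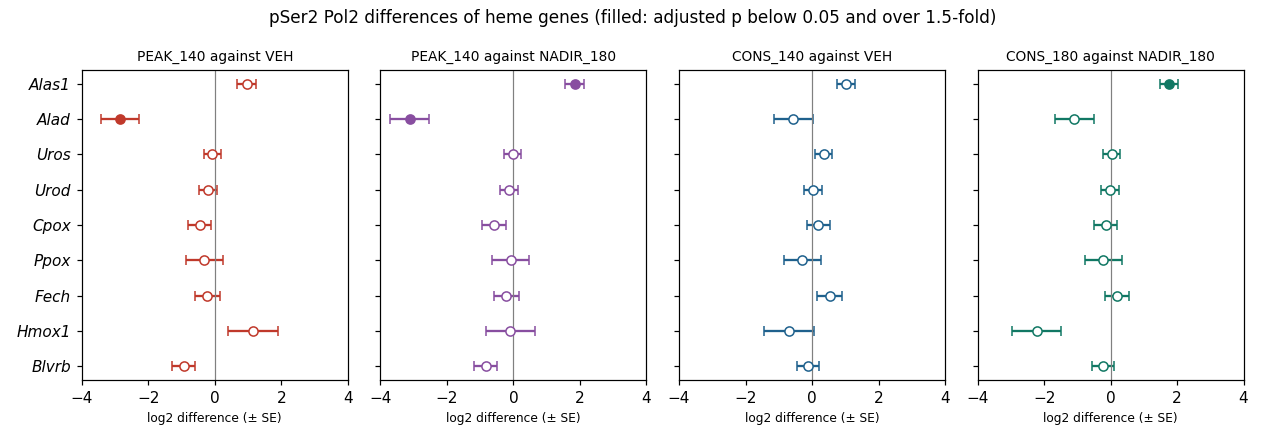
Differences in pSer2 Pol2 occupancy on the log2 scale (horizontal axis, ± SE) of the 9 members in 4 comparisons, with members in rows. Filled points passed the test, which were Alad in PEAK_140 against VEH (-2.85), Alad (-3.12) and Alas1 (1.84) in PEAK_140 against NADIR_180, and Alas1 in CONS_180 against NADIR_180 (1.76).

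Steady-state RNA at 180 min was compared between CORT and vehicle within each pattern, to ask whether the 2 patterns left different transcript levels. None of the 9 members was called in any of the 4 comparisons. With edgeR, 0 of 9 passed under constant CORT, where 9.2% of 14092 genes did, and 0 of 9 under pulsatile CORT, where 4.23% did. The 2 vehicle groups differed in 0 members and in 0% of genes, and the responses to the 2 patterns differed in 0 members and 0.0284% of genes. At an unadjusted p below 0.05 there were 1, 2, 1 and 1 members in these comparisons in that order, and DESeq2 called 0 members in each. Between the vehicle groups 1286 genes had an unadjusted p below 0.05, and DESeq2 called 22. In whole liver, fewer cells of a type and less RNA per cell cannot be told apart.

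Alas1 RNA was 136, 44 and 79.7 CPM in PULS_VEH, 212, 122 and 138 in PULS_CORT, 128, 170 and 115 in CONS_VEH, and 220, 176 and 140 in CONS_CORT. The groups overlapped in both patterns, and the PULS_VEH libraries varied most for their level (86.7 ± 46.6 CPM, SD, n = 3). Alas1 was 1.82-fold higher under pulsatile CORT, which did not pass (log2 difference 0.86 ± 0.30, adjusted p = 0.116). Without the first PULS_VEH library the difference was 1.35 and passed (adjusted p = 0.0137), as it did with no filter beyond 1 read (0.86, adjusted p = 0.0215). The summed erythroid markers were 322 to 375 CPM in PULS_CORT and 181 to 320 in PULS_VEH, and their part in this difference was not tested. Under constant CORT the Alas1 difference was 0.38 ± 0.30 (adjusted p = 0.486), and the responses to the 2 patterns differed by -0.49 ± 0.43 (adjusted p = 0.688). The vehicle groups themselves differed by -0.66 ± 0.30 in this gene, pulsatile below constant (adjusted p = 0.539).

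Alad RNA was 183, 179 and 167 CPM in CONS_VEH and 131, 134 and 127 in CONS_CORT, with no overlap. Its log2 difference was -0.43 ± 0.11 with an adjusted p of 0.0151, but the change of 1.35-fold was under the 1.5-fold limit, so it was not called. In the pulsatile groups Alad was 160, 149 and 153 CPM with vehicle and 137, 165 and 131 with CORT, which overlapped (-0.10 ± 0.11, adjusted p = 0.686). The 2 responses differed by -0.33 ± 0.15 (adjusted p = 0.394).

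Cpox RNA was 33.5, 33.4 and 31.8 CPM in PULS_CORT and 29.7, 22.5 and 27.4 in PULS_VEH. The groups did not overlap, and the difference of 0.31 ± 0.13 did not pass (adjusted p = 0.173). Under constant CORT Cpox was 27.3 ± 0.956 CPM against 28.3 ± 2.72 with vehicle. The remaining synthesis genes differed little in either pattern, with log2 differences between -0.29 for Ppox and 0.05 for Urod under constant CORT and between -0.04 for Ppox and 0.12 for Fech under pulsatile CORT. Uros had only 20 to 71 reads per library, which limits what could be seen. The median over the 7 synthesis genes was -0.06 under constant and 0.09 under pulsatile CORT, against -0.01 over all genes in both.

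Of the breakdown genes, Hmox1 had 25 to 113 reads per library. Its level was 12.3, 21 and 14.9 CPM in PULS_VEH, 11, 11.9 and 6.21 in PULS_CORT, 8.06, 24.9 and 11 in CONS_VEH, and 11.8, 7.88 and 10.7 in CONS_CORT. The pulsatile groups did not overlap and the constant groups did, the second CONS_VEH library being far above the others. The Hmox1 difference was -0.72 ± 0.36 under pulsatile CORT (adjusted p = 0.276) and -0.49 ± 0.35 under constant CORT (adjusted p = 0.42). Blvrb was 57.5 ± 2.86 CPM in PULS_VEH, 49.9 ± 8.18 in PULS_CORT, 63.8 ± 5.14 in CONS_VEH and 54 ± 8.4 in CONS_CORT, with overlap in both patterns (adjusted p = 0.468 and 0.312).

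**Figure D3:**
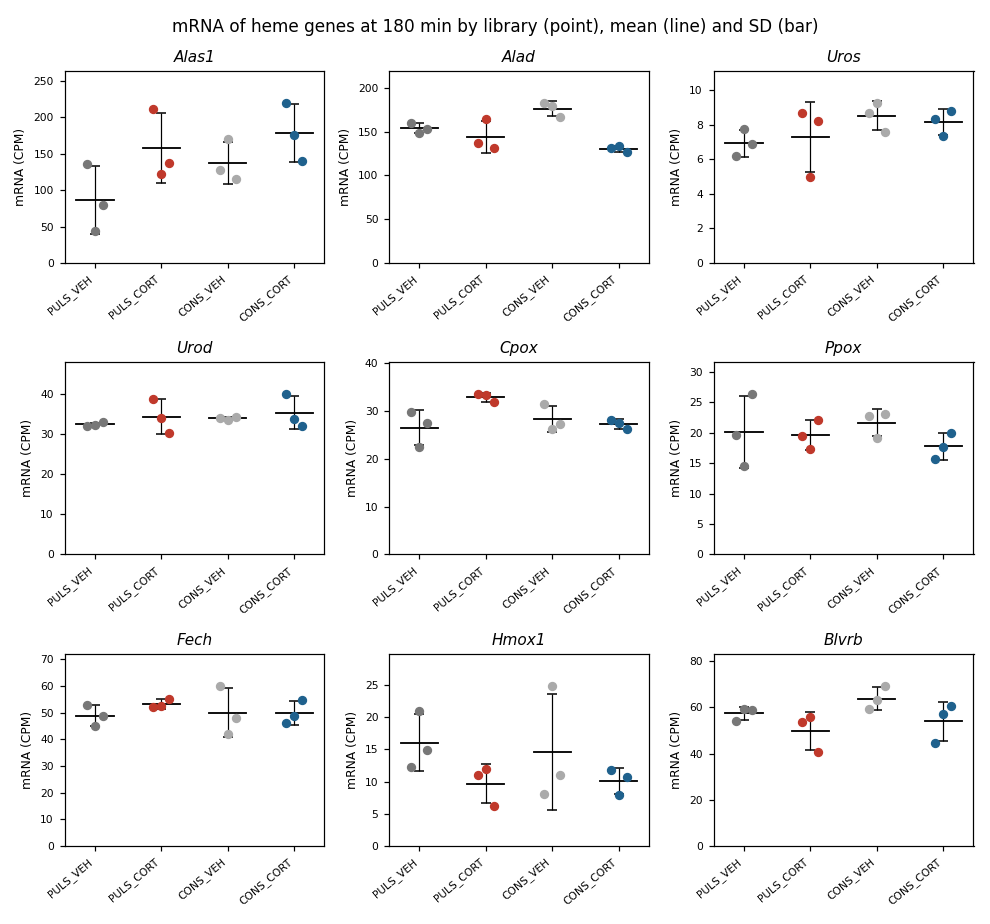
RNA of the 9 members at 180 min in CPM (vertical axis, from 0, a separate range for each gene) in PULS_VEH, PULS_CORT, CONS_VEH and CONS_CORT. Points are libraries, lines are means and bars are SD (n = 3). Alad in CONS_CORT (127 to 134 CPM) sits below CONS_VEH (167 to 183 CPM), and Alas1 groups overlap.

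GR binding near the members was compared to ask where the receptor was found around these genes and for how long. GR regions lay near 3 of the 9 TSSs, against 16.9% of 26426 genes. Alas1 had 4 regions, all intergenic and upstream, as 0.976% of genes had 4 or more. They lie 4.85 kb (chr8:114944711-114945336), 17.8 kb (chr8:114957758-114958285), 19.2 kb (chr8:114959037-114959693) and 22.1 kb (chr8:114961973-114962598) from its TSS. Ppox had 1 region 41.6 kb downstream (chr13:89612294-89612922), in an intron of another transcript and nearest to Fcer1g, and 1 at 45.6 kb upstream (chr13:89699490-89700115), nearest to Dedd. The single region of Cpox, at chr11:44099333-44099958, is centred 49997.5 b upstream and so is only just inside the limit. The next regions outside it were 78.2 kb and 80.1 kb from Ppox. The nearest region to Alad was 142 kb away, in an intron nearest to Slc31a1, and those of Uros, Urod, Fech, Hmox1 and Blvrb were 103 to 2720 kb away.

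Binding at the Alas1 region 19.2 kb upstream was -0.82 and -1.0 in VEH, 4.34 and 3.69 in PEAK_140, -0.76 and -0.60 in NADIR_180, 4.19 and 3.68 in CONS_140, and 3.91 and 4.25 in CONS_180 on the log2 scale. The NADIR_180 libraries stood near VEH, and the 6 others stood far above both without overlap. Values at 22.1 kb were close to these (-0.91 and -1.09 in VEH, -0.85 and -0.68 in NADIR_180) and are likewise among the lowest near members. The low values may thus mark the floor of the scale, and the size of differences from VEH and NADIR_180 depends on it. At 19.2 kb the SD was 0.12 in VEH and in NADIR_180, against 0.24 to 0.46 in the other groups. Spread was estimated over all groups together, so with libraries at a floor the SE and p-values may be too small. The region 4.85 kb upstream showed the same split of high from low groups with wider spread at low binding, at 0.67 and -0.86 in VEH, 4.25 and 3.53 in PEAK_140, 1.47 and -0.48 in NADIR_180, 3.95 and 3.69 in CONS_140, and 3.72 and 3.76 in CONS_180. In 2 of the 4 regions 1 library departed from its pair: at 17.8 kb the second NADIR_180 library reached 2.11 where the first gave -0.70, and at 22.1 kb the second CONS_140 library gave 1.14 where the first gave 4.53. Otherwise PEAK_140, CONS_140 and CONS_180 stood above VEH and NADIR_180 in all 4 regions, and the order among those 3 groups differed between regions.

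Against VEH, 4 of 4 Alas1 regions were called in PEAK_140, in CONS_140 and in CONS_180, and 0 of 4 in NADIR_180. The log2 differences were 3.95 to 4.93, 3.83 to 4.85, 3.84 to 4.99 and 0.23 to 1.55 in that order. In the region at 19.2 kb, PEAK_140 exceeded VEH by 4.93 ± 0.60 (adjusted p = 0.000151). Against NADIR_180, all 4 were higher in PEAK_140 (2.40 to 4.69) and in CONS_180 (2.94 to 4.76). CONS_140 and PEAK_140 differed by -0.95 to 0.64 in these 4 regions, with 0 called.

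Such calls were the rule in this assay, whose regions are peaks that the authors had called in groups of these same libraries. All 7 regions near members were marked as peaks in PEAK_140, CONS_140 or CONS_180, and none in VEH or NADIR_180. Calls of the marked groups over VEH or NADIR_180 were therefore favoured by the choice of regions and are no independent support. Over all 7 regions near members, 6 were called between PEAK_140 and VEH (80.5% of all 3981 regions), 6 between CONS_140 and VEH (65.1%), 7 between CONS_180 and VEH (68.2%) and 6 between PEAK_140 and NADIR_180 (69.3%). Between CONS_180 and NADIR_180 there were 5 (49.6%). With limma 0 of 7 were called between NADIR_180 and VEH (7.79%), and 0 of 7 between CONS_140 and PEAK_140 (0.0502%), with 0 at an unadjusted p below 0.05 in both. The median region rose by 4.17 in PEAK_140, 3.38 in CONS_140, 3.46 in CONS_180 and 0.84 in NADIR_180 against VEH, by 3.20 in PEAK_140 and 2.49 in CONS_180 against NADIR_180, and CONS_140 stood at -0.58 against PEAK_140.

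Relative to the median region, the Alas1 regions stood between -0.22 and 0.76 in PEAK_140 against VEH, and 44.4% to 69.3% of all regions had a smaller difference. The region at 19.2 kb was 1.47 above the median region in CONS_140 and 1.53 above it in CONS_180. Against NADIR_180 in CONS_180 it was 2.27 above, and 96.3% of regions had a smaller difference. After each library was centred on its median, none of the 6 calls between PEAK_140 and VEH remained, and the Ppox region at 45.6 kb, not called before, was called lower (-4.05, adjusted p = 0.0262). In CONS_180 against VEH 0 of 7 were called after centring. Under centring or quantile normalization some of the Alas1 differences at 4.85 kb, 17.8 kb and 22.1 kb turned negative. Centring brought the median difference over all regions to -0.45 in PEAK_140 and -0.60 in CONS_180 against VEH, and quantile normalization to 0.33 and 0.26. Quantile normalization thus took out most of the shift of the median region there, and centring more than all of it. These lost calls therefore cannot show that binding was absent.

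The Ppox region 41.6 kb downstream had the highest binding of the 7, at 5.54 and 5.85 in PEAK_140, 4.46 and 5.04 in CONS_140, 5.34 and 4.38 in CONS_180, 2.35 and -0.37 in NADIR_180, and -0.61 and -0.80 in VEH. Its difference between PEAK_140 and VEH was 6.40 ± 0.86 (adjusted p = 0.000246), 2.23 above the median region. The Cpox region gave 4.92 and 5.04 in PEAK_140, 3.98 and 4.50 in CONS_140, 3.63 and 3.57 in CONS_180, 3.41 and -0.44 in NADIR_180, and -0.67 and -0.85 in VEH. Its NADIR_180 libraries therefore spanned nearly the whole range, and its difference between CONS_180 and NADIR_180 was not called (2.12, adjusted p = 0.121). The Ppox region 45.6 kb upstream was bound weakly, with 1.09 and 0.91 in CONS_180 and -1.18 to -0.17 in the other 8 libraries. It was called in CONS_180 against VEH alone (2.10 ± 0.76, adjusted p = 0.0355), which stood at -1.36 relative to the median region. The authors had marked this region as a peak in CONS_180 only.

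The fall of binding from 140 min to 180 min was compared between patterns. The peak-to-trough change exceeded the change during constant infusion in 4 of 7 regions (44% of all regions called), namely the Alas1 regions at 4.85 kb (3.31 ± 1.16, adjusted p = 0.0463), 19.2 kb (4.84 ± 0.85, adjusted p = 0.00597) and 22.1 kb (5.51 ± 1.43, adjusted p = 0.0187) and the Ppox region at 41.6 kb (4.82 ± 1.22, adjusted p = 0.0172). The median over all regions was 3.11, so these stood 0.20 to 2.40 above it. All 4 had been marked as peaks in PEAK_140 and CONS_180 but not in NADIR_180. This difference was therefore also favoured by the choice of regions. Without the first CONS_180 library or either PEAK_140 library 1 of the 4 calls remained, that at 19.2 kb, while the region at 4.85 kb also lost its call without either CONS_140 library, the second CONS_180 library or the second NADIR_180 library (adjusted p between 0.0698 and 0.136 over these). Without the first CONS_180 library the calls between CONS_180 and NADIR_180 fell from 5 to 1, the lost ones being at 4.85 kb, 17.8 kb and 22.1 kb of Alas1 and 41.6 kb of Ppox (adjusted p between 0.0567 and 0.094). The call at 4.85 kb was also lost there without the second library of CONS_180 or of NADIR_180, and that at 17.8 kb without the second CONS_180 or the first NADIR_180 library, while Cpox gained a call without the latter (4.05, adjusted p = 0.00102) and Ppox at 45.6 kb without either CONS_140 library (adjusted p = 0.0204 and 0.0141). Without the first PEAK_140 library the calls between PEAK_140 and NADIR_180 fell from 6 to 3 (Alas1 at 4.85 kb and 17.8 kb and Cpox, adjusted p between 0.0517 and 0.137). The call at 17.8 kb in that comparison held only without the second NADIR_180 library or either CONS_140 library, and the Cpox call was also lost without the second PEAK_140 library (adjusted p = 0.0714). The Ppox call at 45.6 kb in CONS_180 against VEH was lost without either library of these groups (adjusted p between 0.0739 and 0.131), and the region at 22.1 kb was called between CONS_140 and PEAK_140 without the first CONS_140 library (-2.65, adjusted p = 0.0462). In NADIR_180 against VEH, 1 region (Alas1 at 17.8 kb) was called without the first NADIR_180 library, and 2 (Cpox and Ppox at 41.6 kb) without the second.

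**Figure D4:**
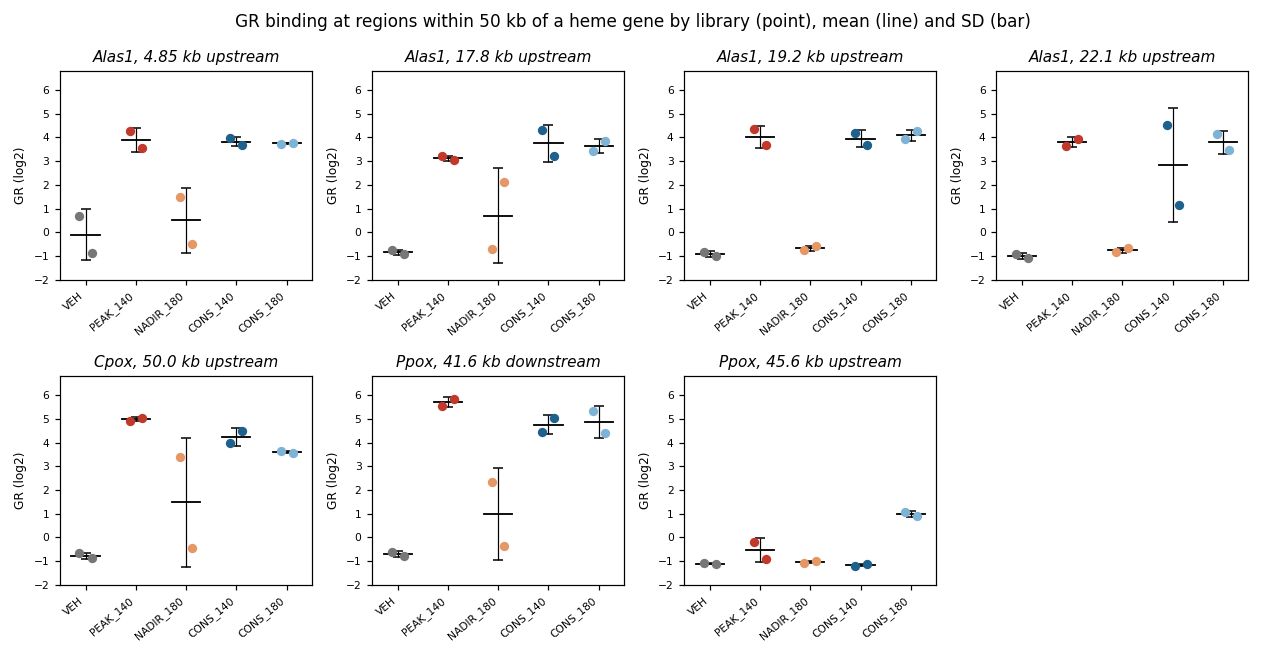
GR binding on the log2 scale (vertical axis, 1 range for all panels) in the 7 regions within 50 kb of a member TSS, each named by its gene and distance, in VEH, PEAK_140, NADIR_180, CONS_140 and CONS_180. Points are libraries, lines are means and bars are SD (n = 2). In 6 regions PEAK_140 stands above 3 and VEH below 1, while the Ppox region at 45.6 kb stays near or below 1 throughout.

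The rest of the pathway was read from lists of genes around the members, chosen with earlier results of these data known. For scale, 9.2% of all genes were called in RNA under constant CORT and 4.23% under pulsatile CORT. In polymerase occupancy, 0.788% of all regions were called in CONS_140, 0.989% in PEAK_140 and 0.214% in CONS_180 against VEH. Against NADIR_180 the share was 0.48% in PEAK_140 and 0.17% in CONS_180, and between CONS_140 and PEAK_140 it was 0.0261%. Of Alas2 (the erythroid form of the first enzyme, 35 to 95 reads per library), Hmox2 (the constitutive heme oxygenase) and Blvra (the other biliverdin reductase), 0 of 3 were called in RNA under either pattern by edgeR. Among 17 genes of heme and porphyrin transport, the exporter gene Abcg2 fell under constant CORT (log2 difference -0.73 ± 0.13, adjusted p = 0.000971) and the transporter gene Flvcr2 fell under pulsatile CORT (-0.98 ± 0.19, adjusted p = 0.0072). In polymerase occupancy, the gene of the plasma heme scavenger hemopexin, Hpx, fell in CONS_140 against VEH (-1.74 ± 0.27, adjusted p = 0.0124).

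Among 16 regulators of Alas1 or Hmox1, RNA of 7 rose and of 1 fell under constant CORT (9.2% of all genes called). Under pulsatile CORT 3 rose (4.23% called). The list median was 0.37 under constant CORT and 0.19 under pulsatile CORT, against -0.01 over all genes. Since the list was chosen with earlier results of these data known, its counts and median are a description only. Ppargc1a, the fasting-induced coactivator of Alas1, rose by 2.93 ± 0.21 under constant CORT (adjusted p = 1.83e-07) and by 0.98 ± 0.21 under pulsatile CORT (adjusted p = 0.0122), and these responses differed by 1.95 ± 0.29 (adjusted p = 0.0323). Foxo1, the insulin-restrained forkhead factor, rose by 1.82 ± 0.18 and 0.81 ± 0.18 in the same order, and Nr1i2, the xenobiotic receptor PXR, by 1.62 ± 0.14 and 0.97 ± 0.14. Under constant CORT, Bach1, the heme-sensing repressor of Hmox1, rose by 1.38 ± 0.22 (adjusted p = 0.00055), and Nfe2l2, the activator of Hmox1, fell by 1.21 (adjusted p = 0.000189). Ppargc1b also rose under constant CORT (1.23 ± 0.19, adjusted p = 0.000477). In polymerase occupancy, 3 regulators rose in CONS_140 against VEH, namely Foxo1 (2.57 ± 0.40, adjusted p = 0.0126), Nr1i3 (2.09 ± 0.34, adjusted p = 0.0166) and Nr1i2 (1.89 ± 0.33, adjusted p = 0.0249), and Nfe2l2 fell in PEAK_140 against VEH (-2.38 ± 0.33, adjusted p = 0.00611).

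Of 16 iron genes tested, 3 rose and 2 fell in RNA under constant CORT (9.2% of all genes called). Under pulsatile CORT 1 rose (4.23% called). The transferrin receptor gene Tfrc rose by 0.81 and 1.00 in the 2 patterns. Hjv, which encodes the hepcidin regulator hemojuvelin, fell by 1.39 under constant CORT. In that comparison Ncoa4 (0.69 ± 0.13) and Bmp6 (1.03 ± 0.27) also rose, and Steap3 (-0.70 ± 0.18) also fell. In polymerase occupancy, Ftl1, the ferritin light chain gene, fell by 1.65 in PEAK_140 against VEH. Hjv occupancy fell in PEAK_140 against VEH (-1.71 ± 0.35) and against NADIR_180 (-1.97 ± 0.35). Of the genes for bilirubin disposal, the uptake transporter gene Slco1b2 fell in RNA under constant CORT (-0.69 ± 0.12, adjusted p = 0.00133). Its occupancy also fell in PEAK_140 against VEH (-2.24 ± 0.30) and NADIR_180 (-2.21 ± 0.30), and it was higher in CONS_140 than in PEAK_140 by 2.31 (adjusted p = 0.0473). Occupancy of Abcc2, the gene of the canalicular exporter of bilirubin conjugates, fell by 1.65 in PEAK_140 against VEH.

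Among 8 genes tested that encode heme proteins of liver or their electron donors, Por, the P450 reductase gene, rose in RNA by 2.71 ± 0.16 under constant and 1.68 ± 0.16 under pulsatile CORT. The gene of the heme enzyme tryptophan dioxygenase, Tdo2, rose by 2.09 ± 0.21 and 2.10 ± 0.21. Cyp7a1, the rate-limiting enzyme gene of bile acid synthesis, fell by 0.89 in RNA under constant CORT, while its occupancy in CONS_140 rose by 2.25 against VEH. Por occupancy rose in all 5 comparisons of PEAK_140 or CONS groups with VEH or of PEAK_140 and CONS_180 with NADIR_180 (2.49 to 3.37). Tdo2 occupancy rose by 2.25 in PEAK_140, 2.25 in CONS_140 and 1.79 in CONS_180 against VEH. It also rose by 1.58 in PEAK_140 against NADIR_180. Catalase occupancy (Cat) fell in PEAK_140 against VEH (-2.18 ± 0.29) and NADIR_180 (-1.71 ± 0.29).

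The RNA profile of Alas1 over the 12 libraries was also set against 7303 genes with a mean of 10 CPM or more, as a description. The most alike were Cpsf1 (Pearson r = 0.94), Plcg1 (0.89), Ptgr2 (0.88), Inf2 (0.86) and Ampd2 (0.86). Among the members, r with Alas1 was 0.56 for Cpox, 0.53 for Urod, 0.13 for Fech, 0.02 for Ppox, -0.24 for Alad, -0.33 for Blvrb and -0.38 for Hmox1. These libraries share the 4 groups and their differences in depth.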

How the data were processed

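RNA-Seq, GR ChIP-Seq and pSer2 Pol2 ChIP-Seq of rat liver were used, grouped as the labels give them, and input DNA was used only where the authors had subtracted it. The authors deposited RNA values as raw counts per gene (stranded total RNA, STAR, featureCounts 1.6.2, DESeq2). The features behind these counts are not fully described in the sources used here. The authors deposited ChIP values on a log2 scale, made from reads trimmed with Trimmomatic 0.36, aligned with bowtie2 to rn6 and counted with HOMER 4.9.1 after input subtraction. They limited pSer2 Pol2 regions to 10 kb from the TSS. GR values were scaled to tags in binding regions according to the methods and to total tags according to the file header. The values are not whole, and low ones are drawn together, so that small differences at low occupancy are understated. Columns of the authors' own fold changes and p-values were not used.

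The 14092 genes whose reads summed to over 10 in the 12 RNA libraries were tested with edgeR 4.0.16 (TMM, quasi-likelihood). ChIP values were tested with limma 3.58.1 in R 4.3.3 (empirical Bayes with a variance trend, all 10 libraries of an assay), after 22684 pSer2 Pol2 regions with 1 value in all libraries were left out. Tests were two-sided, Benjamini-Hochberg adjustment ran over all features of a comparison, and a call needed an adjusted p below 0.05 and a change over 1.5-fold. A gene was read in the region that carries its Ensembl gene ID, and all 9 members passed both filters. RNA differences are edgeR log2 fold changes, and CPM were scaled by TMM. The scripts were tested on simulated data. DESeq2 1.42.0, other filters, scalings, fits and distances were tried, and each library was left out in turn. Depth is given with the results and sets the counting error of low genes. The members, the gene lists and the rules on which genes are named (all 9 members, all GR regions within 50 kb, and list genes called in RNA, at most 6 a comparison by adjusted p) were chosen with earlier results of these data known. List genes called in polymerase occupancy were added to the text after their values were seen. Of the list and marker genes, 5 were not found by name. Of the list genes, 1 is not reported here. Hjv was found as Hfe2. Promoter sequences are from RefSeq (GRCr8), and no coordinates were converted between GRCr8 and rn6.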

Additional observations from a re-analysis of the deposited data

Results flagged for a closer look

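In 4 of the 7 GR regions near members, the change of binding from 140 min to 180 min differed between pulsatile and constant infusion by the test of the difference itself. On the log2 scale this difference was 4.84 for the Alas1 region at 19.2 kb, 5.51 for that at 22.1 kb, 3.31 for that at 4.85 kb and 4.82 for the Ppox region at 41.6 kb. The median over all 3981 regions was 3.11, and 44% of regions were called. The authors had marked these 4 regions as peaks in PEAK_140 and CONS_180 but not in NADIR_180. The choice of regions thus favoured a positive difference, and these calls are no independent support. None of these 4 was called after each library was centred on its median or after quantile normalization. These steps brought the median over all regions to -0.28 and 0.09, so they also take out the shift of the median region. The lost calls therefore say little about these 4 regions themselves. Groups of 2 or 3 libraries were too small to test for single libraries that stand apart, so those named above are described only.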

How the results depend on the processing

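Of 2899 single values under the alternatives, 2717 stayed on their side of the call (138 of these, none of them called, changed sign), 129 lost the call, 36 gained it and 17 changed direction where the value was called before or after. All 17 were GR values after rescaling. In their comparisons quantile normalization takes out most of the shift of the median region, and centring takes out more than all of it. GR counts of regions called, of 7, fell with centring on the median and with quantile normalization to 1 and 0 in CONS_140 against VEH (6 as reported), 0 and 2 in CONS_180 against VEH (7), 1 and 1 in PEAK_140 against VEH (6), 0 and 0 in PEAK_140 against NADIR_180 (6), 0 and 0 in CONS_180 against NADIR_180 (5), and 0 and 0 in the comparison of patterns (4). The 1 call with centring in CONS_140 and the 1 in PEAK_140 against VEH were both the Ppox region at 45.6 kb, called lower (-4.15 and -4.05) where it had not been called before, so that none of the 6 reported calls remained. At 4.85 kb from Alas1 the log2 difference became -0.19 and -0.13 in CONS_140, -0.23 and -0.03 in CONS_180 and -0.63 and -0.43 in PEAK_140 against VEH, -0.04 and -0.08 in PEAK_140 against NADIR_180, and -0.08 with centring in the comparison of patterns. At 17.8 kb it became -0.66 and -0.34 in PEAK_140 against VEH and -1.03 and -1.19 against NADIR_180, and -0.05 with quantile normalization in CONS_180 against NADIR_180. With centring it became -0.28 at 22.1 kb in CONS_140, and for Ppox at 45.6 kb -1.96 in CONS_180 and -4.05 in PEAK_140, all against VEH. With a limit of 25 kb there were 4 regions in place of 7.

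Over all regions, higher and lower calls in PEAK_140 against VEH were 3131 and 73 for GR as deposited, 103 and 431 with centring and 574 and 465 with quantile normalization. For pSer2 Pol2 in CONS_140 against VEH they were 227 and 75 as deposited and 349 and 362 with quantile normalization, and in PEAK_140 against VEH 140 and 239 against 399 and 445. In CONS_140 against PEAK_140 the pSer2 Pol2 calls were 8 and 2 as deposited, 177 and 80 with centring and 47 and 73 with quantile normalization, and in CONS_180 against NADIR_180 they were 63 and 2, 130 and 22, and 127 and 40. DESeq2 called 215 genes in the RNA comparison of patterns where edgeR called 4.

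In pSer2 Pol2, members called in PEAK_140 against VEH (1 as reported) were 2 with centring, with quantile normalization and in regions above the median level, and 0 with no variance trend and in a fit to the libraries compared alone. In PEAK_140 against NADIR_180 (2) there was 1 with no variance trend and 0 in a fit to the libraries compared alone, which also gave 0 in CONS_180 against NADIR_180 (1). In the comparison of patterns (0) there was 1 with centring, with quantile normalization and in regions above the median level, which also gave 1 in CONS_140 against VEH (0). In RNA, 1 member (0 as reported) was called under constant CORT with no fold threshold and 1 under pulsatile CORT with no filter beyond 1 read. The cause was not tested for any of these changes.

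Leaving out 1 library at a time gave, for GR, 0 to 1 regions in CONS_140 against PEAK_140, 6 to 6 in CONS_140 and in PEAK_140 against VEH, 6 to 7 in CONS_180 against VEH, 0 to 2 in NADIR_180 against VEH, 3 to 6 in PEAK_140 and 1 to 6 in CONS_180 against NADIR_180, and 1 to 5 in the comparison of patterns. For pSer2 Pol2 it gave 0 to 4 members in CONS_140 against PEAK_140, 0 to 2 in CONS_140 against VEH, 0 to 1 in PEAK_140 and in CONS_180 against NADIR_180, 0 to 0 in the other comparisons with VEH and 0 to 4 in the comparison of patterns. For RNA it gave 0 to 1 members under pulsatile CORT and 0 to 0 in the other 3 comparisons.

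Replicate numbers are shared between groups, and the design text speaks of 2 independent ChIP experiments without saying that the number marks the experiment. The correlation of deviations of same-numbered libraries was 0.155 to 0.553 in pSer2 Pol2, -0.0265 to 0.0718 in GR and -0.0893 to 0.133 in RNA. With the replicate block 1 member was called between CONS_140 and PEAK_140 (0 without it), which was Alad (2.29, adjusted p = 0.0347), and no other call of a member changed. The block moved the calls over all pSer2 Pol2 regions from 10 to 484 in CONS_140 against PEAK_140, from 302 to 501 in CONS_140, 82 to 132 in CONS_180 and 379 to 577 in PEAK_140 against VEH, and from 22 to 91 in the comparison of patterns, and RNA calls in the comparison of patterns from 4 to 9. With 2 libraries per ChIP group and few tags on Uros and Urod, decreases in those genes were not detectable at this depth.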
